A study of Mus musculus with 16 samples.

Results

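The LDL receptor-related proteins are large single-pass cell surface receptors, and 6 of their genes are described here: Lrp1, Lrp1b, Lrp2, Lrp4, Lrp5 and Lrp6. They were taken by name as a gene family, and each was looked up in all 8 lists of places where RNA came down with THOC5, a subunit of the THO complex that couples transcription to mRNA export. Of the 6 genes, 4 held at least 1 peak. Of all 49997 RefSeq genes, 4051 did (8.10%), and over the protein-coding ones 18.0%. Shares differed by gene span. Of protein-coding genes spanning 50 to 100 kb, as Lrp1 and Lrp4 do, 36.2% held a peak. For 100 to 200 kb (Lrp2, Lrp5 and Lrp6) it was 43.8%, and for over 1000 kb (Lrp1b) 22.0%. Those 4 genes carried 31 of the 28998 peaks deposited. The lists come from RNA immunoprecipitation (RIP) in primary mouse vascular smooth muscle cells, with 2 lists for each of 4 conditions. Ctrl cells were wild type in growth medium and Pi cells were wild type in osteogenic medium. GFP OE cells overexpressed GFP and THOC5 OE cells overexpressed THOC5, both in osteogenic medium. The same antibody target, THOC5, was precipitated in each. The sources used here do not give strain, age, pooling of animals or the kind of vector, and no label says that replicates were separate cultures, so p-values measure only the spread between these samples. The inputs (8 of 16 samples), transcript levels and library depth were not analysed here. A gene without a peak was therefore not shown to be unbound.

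These receptors share clusters of ligand-binding repeats, YWTD beta-propellers and a short cytoplasmic tail, and they split by function. Lrp1 and Lrp2 (megalin) are endocytic receptors that clear many ligands, and Lrp1 also restrains PDGF signalling in the vessel wall. Lrp1b is a close relative of Lrp1. Lrp5 and Lrp6 stand beside Frizzled as coreceptors of Wnt, a pathway that drives bone formation and is studied in vascular calcification. Lrp4 receives agrin at the neuromuscular junction and also binds the Wnt antagonist sclerostin.

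The peak lists held 2572 to 4795 peaks. Each peak carries a score from the authors' peak caller, whose scale is not stated, so peaks were ordered within a list by percentile: 100 is the strongest peak of that list and values near 0 the weakest. A peak was given to the gene whose transcript the deposited annotation names, where that annotation puts the peak's centre in an exon, an intron, a UTR or a transcript end. Coordinates are those of the mm10 files. Among cell type markers, 5 of 9 smooth muscle genes had a peak, Mylk in all 8 lists, but Myh11 and Cnn1 had none. Peaks were present in 1 of 3 fibroblast, 1 of 5 osteochondrogenic, 0 of 5 endothelial and 0 of 4 leukocyte genes, where 18.0% of all protein-coding genes had a peak in any list and 1.82% in all 8. Thoc5 itself had 1 peak, in 1 list. Peaks do not measure expression, so these counts neither support nor oppose the labelled cell type.

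Lrp1 carried one of the strongest peaks in the data. It lies at chr10:127583983-127584582 (the outer limits over the lists), 36.9 kb downstream of the start of this 83.0 kb gene, and was present in 7 of 8 lists. Its rank was 14 of 2603 peaks in Ctrl replicate 1 and 19 of 4795 in Ctrl replicate 2. In Pi it ranked 14 of 2666 and 13 of 3793. In GFP OE replicate 2 it ranked 10 of 2572. In THOC5 OE it ranked 16 of 4618 and 13 of 4240. In all 7 lists it thus stood among the 19 strongest peaks, at percentiles of 99.5 to 99.7 and with scores of 18.2 to 34.4 times the median of the list. Ctrl and Pi overlapped. Ctrl had a mean percentile of 99.6 (SD 0.0877, n = 2) and Pi one of 99.6 (SD 0.121, n = 2). They differed by 0.0354 (two-sided exact permutation p 0.667, smallest possible 0.333). Both THOC5 OE lists (99.68 and 99.72) stood above both Ctrl lists (99.50 and 99.62). That comparison was not tested, and the share of all genes that show it was not computed.

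This Lrp1 peak spans a splice junction. The annotation put its centre in exon 17 of 89 in 2 lists, Ctrl replicate 2 and THOC5 OE replicate 2, and in intron 17 of 88 in the other 5. The centres lay within 78 bp of each other, and the lowest exonic and highest intronic centre were 8.5 bp apart. That boundary falls inside the stretch of 366 bp, chr10:127584106-127584472, that all 7 peaks cover. The class thus changed between lists while the peaks stayed within 1 chain of overlapping peaks at the junction of exon 17 with the intron after it.

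GFP OE replicate 1 had no peak anywhere in Lrp1. In that list, the peak nearest to the place of the strong Lrp1 peak lay 336 kb from it, in Kif5a. Lrp1 was 1 of 220 genes with a peak in exactly 7 lists (5.43% of the 4051), and in 23 of those 220 the missing list was GFP OE replicate 1. Only Lrp1 and Phldb2, named here after its values were seen, were missing from 1 list while reaching percentile 99 in the other 7. For Phldb2 the missing list was GFP OE replicate 2. Under that cutoff, Arhgef17 reached at least 98.6 and was also missing from GFP OE replicate 2. Zfp532 reached at least 97.2 and was missing from Pi replicate 2. Cux1 and Cic, at 92.7 and 92.6 or above, were missing from GFP OE replicate 1, as Lrp1 was. In GFP OE replicate 2 the Lrp1 peak stood at percentile 99.7, so the 2 replicates disagreed, and the mean number of peaks in GFP OE was 0.5 (SD 0.707, n = 2).

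Other Lrp1 peaks were rarer but also strong. One in intron 1, at chr10:127620333-127620871 and centred 0.554 kb from the start, was present in Ctrl replicate 2 (percentile 97.1, rank 141) and THOC5 OE replicate 2 (98.8, rank 52). Another in intron 5, at chr10:127605550-127605965, was present only in Ctrl replicate 2, at rank 29 (percentile 99.4); RefSeq also places the predicted gene Gm51820 there, and strand was not available to tell them apart. Numbers of Lrp1 peaks were thus 1 and 3 for the Ctrl lists, 1 and 1 for Pi, 0 and 1 for GFP OE and 1 and 2 for THOC5 OE. No comparison of these counts separated its sides. The difference was -1 for Pi minus Ctrl (two-sided exact permutation p 1) and 1 for THOC5 OE minus GFP OE (exact permutation p 0.667). The Ctrl mean of 2 (SD 1.41) rested on replicate 2, and without it the difference between Pi and Ctrl was 0.

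**Figure D1:**
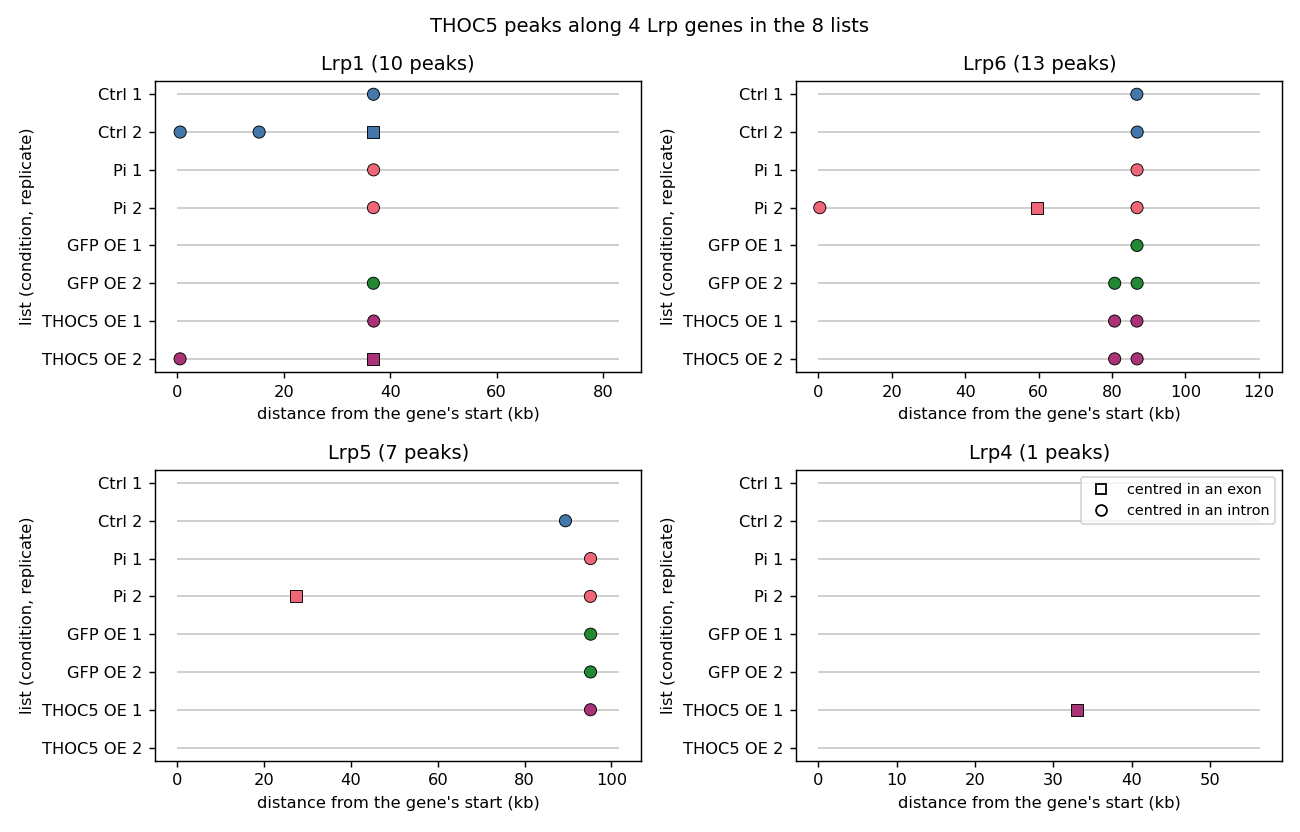
Each panel shows 1 gene from its start (0 kb) to its end, with a line for each of the 8 lists and a point for each peak centre; squares are peaks centred in an exon and circles peaks centred in an intron. The column of points at 36.9 kb in Lrp1 is missing from GFP OE replicate 1, Lrp6 has a peak at 86.8 kb in all 8 lists, and the Lrp5 peak at 95.2 kb is missing from both Ctrl lists and THOC5 OE replicate 2.

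Lrp6, the Wnt coreceptor, was the only one of the 6 genes with a peak in every list, as were 9.87% of genes with a peak in any list. The constant peak lies in intron 11 of 22, at chr6:134479788-134480356, 86.8 kb from the start of the 120.4 kb gene. Over all genes, 2.65% of 11908 separate places inside genes had a peak in all 8 lists. The intron 11 peak was of moderate strength. Its percentile was 60.3 and 65.4 for Ctrl, 68.8 and 71.2 for Pi, 65.9 and 70.6 for GFP OE, and 69.8 and 75.1 for THOC5 OE. Both Ctrl lists thus stood below all 6 lists of osteogenic medium, though by little: the highest Ctrl value and the lowest other value were 65.4 and 65.9. The share of places in all 8 lists that show this order was not computed.

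A second Lrp6 peak was seen in vector-carrying cells only. It lies in intron 8 of 22, at chr6:134485898-134486442, on a simple repeat that the annotation calls (TCTA)n. It was present in GFP OE replicate 2 (percentile 72.0) and in THOC5 OE replicates 1 and 2 (72.2 and 79.0), and absent from GFP OE replicate 1 and from all 4 Ctrl and Pi lists. This pattern, at least 3 of the 4 vector lists and none of the other 4, was shown by 426 of the 11908 places, or 3.58%. Of those 426 places 9 lay on simple repeats (2.11%), against 128 of all places (1.07%). The sources used here do not say how reads on repeats were placed, and the part of the repeat in this peak was not tested.

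Pi replicate 2 added 2 Lrp6 peaks that no other list had. One, in exon 6 of 23 at chr6:134507120-134507559, was the strongest Lrp6 peak of any list (percentile 86.1). The other, in intron 1 at chr6:134566314-134566753, was near the bottom of its list (5.40). In all, Lrp6 had 1 and 1 peaks under Ctrl, 1 and 3 under Pi, 1 and 2 under GFP OE and 2 and 2 under THOC5 OE.

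Taking the best Lrp6 peak of each list, the mean percentile was 74.0 in the 6 osteogenic lists (SD 7.34) and 62.8 in the 2 Ctrl lists (SD 3.64), without overlap. The difference of 11.2 had a two-sided exact permutation p of 0.0714, and an adjusted p of 1 over the 27 tests run on the 4 genes with a peak. Lack of overlap in this direction was also common: 11.2% of the 400 genes with a peak in all 8 lists had both Ctrl lists lowest. The median difference of these 400 genes was 3.38, and 93 of them had a larger one than Lrp6. Percentiles depend on the length of a list. With each list cut to its 2572 strongest peaks, Lrp6 ranged from 35.3 to 59.9 in Ctrl and from 50.1 to 79.4 in the osteogenic lists, which overlap (exact permutation p 0.179). Pi exceeded Ctrl by 14.6 (exact permutation p 0.333, the smallest possible for 2 against 2 lists), by 5.96 without Pi replicate 2, by 23.2 without Pi replicate 1 and by 7.18 at the intron 11 place alone, and THOC5 OE exceeded GFP OE by 6.61 (exact permutation p 0.333), but GFP OE minus Pi gave -8.45 with overlap (exact permutation p 0.667). The excess of THOC5 OE turned to -3.61 with the lists cut to equal length. In the full lists Pi did not overlap Ctrl, and THOC5 OE did not overlap GFP OE. The shares of all genes without overlap in these comparisons were not computed.

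**Figure D2:**
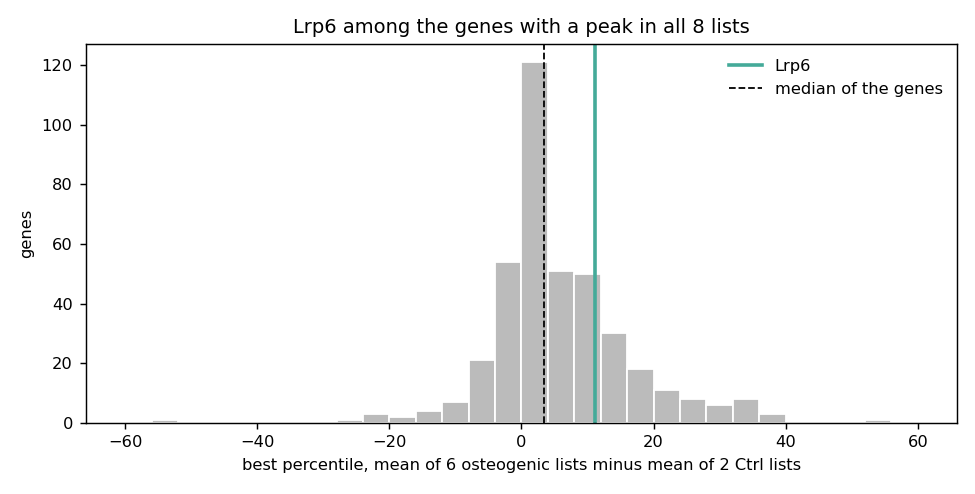
The histogram counts the 400 genes with a peak in all 8 lists by the difference in best percentile, mean of the 6 osteogenic lists minus mean of the 2 Ctrl lists. The solid line marks Lrp6 at 11.2 and the dashed line the median of 3.38; 93 genes lie to the right of Lrp6.

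Lrp5, the other Wnt coreceptor, had a weaker and less regular peak set, with 7 peaks in 6 lists. Its recurrent peak lies late in the 101.8 kb gene, in intron 20 of 22, at chr19:3591131-3591684. That peak was present in both Pi lists (percentiles 30.7 and 13.1), both GFP OE lists (24.3 and 27.1) and THOC5 OE replicate 1 (30.5). It was in neither Ctrl list and not in THOC5 OE replicate 2. Where present, its score was 26 to 45.8. The lowest score of any peak was 29 in Ctrl replicate 1, 15.9 in Ctrl replicate 2 and 6.31 in THOC5 OE replicate 2. Scores are not known to compare between lists, and the part of these lowest scores in the absence was not tested. Of the 8262 places with a peak in the 4 Ctrl and Pi lists, 198 (2.4%) were found in both Pi and neither Ctrl replicate. With a median score or better required, this peak is left out of all 5 lists, since its score was 0.488 to 0.690 times the list median.

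The gene as a whole did not follow that pattern, because Ctrl replicate 2 had a peak in intron 18 of Lrp5, at chr19:3596967-3597382 (percentile 26.9). A single exonic peak, in exon 2 of 23 at chr19:3659063-3659502, was present in Pi replicate 2 (58.3). Lrp5 thus had 0 and 1 peaks for Ctrl, 1 and 2 for Pi, 1 and 1 for GFP OE and 1 and 0 for THOC5 OE. Pi minus Ctrl gave a difference of 1 peak per list (two-sided exact permutation p 0.667). The best percentile was 25.7 in GFP OE (SD 1.95, n = 2) and 44.5 in Pi (SD 19.5, n = 2), which do not overlap (difference -18.8, exact permutation p 0.333, the smallest possible, adjusted p 1). That gap rested on the exon 2 peak of Pi replicate 2, whose other Lrp5 peak stood at 13.1. The share of all genes without overlap in this comparison was not computed.

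Lrp4 had 1 peak in the whole data set. It lies in exon 21 of 38, at chr2:91490295-91490768, in THOC5 OE replicate 1, and was among the weakest of its list (percentile 0.985, position 4573.5 of 4618 with a tie). It was absent from the other THOC5 OE list and from all lists of the other 3 conditions, and was lost when lists were cut to 2572 peaks or at the median score.

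Lrp1b and Lrp2 had no peak in any of the 8 lists. Lrp2 (chr2:69424335-69586029) spans 161.7 kb, longer than Lrp5 and Lrp6. Of 1439 protein-coding genes that span 100 to 200 kb, 43.8% had a peak in at least 1 list. Lrp1b (chr2:40595290-42653598) spans 2058 kb and is the longest of the 6. Among the 59 protein-coding genes over 1000 kb, 13 had a peak (22.0%) and 46 had none. The order by number of peaks was not the order by span: the shortest genes were Lrp4 (56.4 kb, 1 peak) and Lrp1 (83.0 kb, 10 peaks). Whether these cells transcribe Lrp1b and Lrp2 was not tested.

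**Figure D3:**
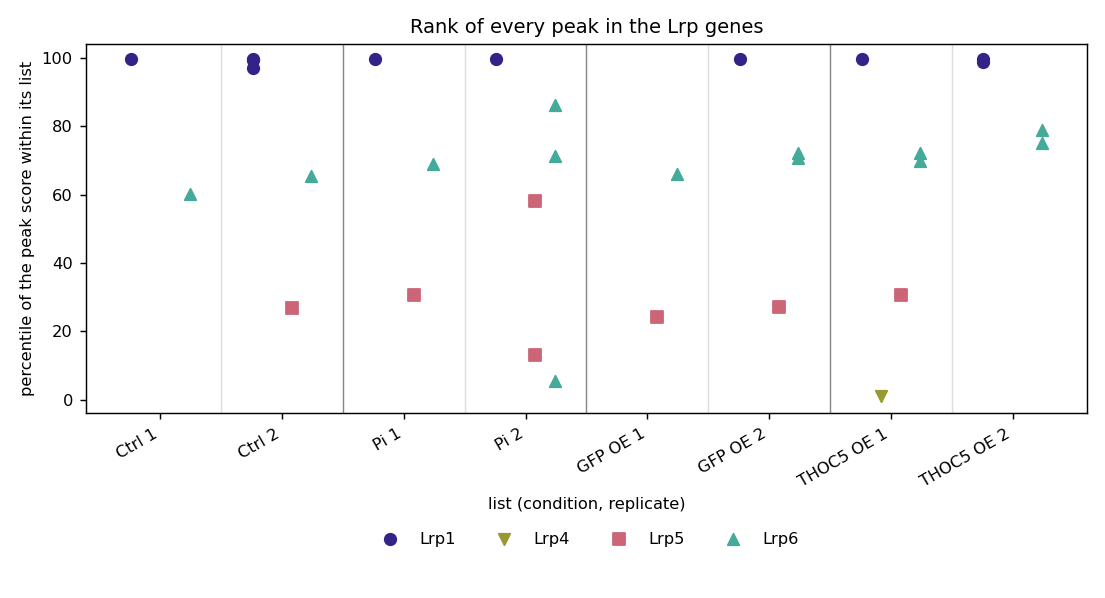
Every peak of the 4 Lrp genes is plotted by list (x axis) and by the percentile of its score within that list (y axis, 100 strongest). Lrp1 stays at 97.1 or above wherever it has a peak, the constant Lrp6 peak lies between 60.3 and 75.1, and Lrp5 peaks lie between 13.1 and 58.3.

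Across the family the 31 peaks fell at 11 places, of which 6 were seen in 1 list only. Recurrence ranged from 8 lists (Lrp6 intron 11) through 7 (Lrp1 exon 17 and intron 17), 5 (Lrp5 intron 20), 3 (Lrp6 intron 8) and 2 (Lrp1 intron 1) to 1. Introns took 26 of the 31 peaks and exons 5 (16.1%), with none in a UTR, where exons took 31.3% of the 28000 peaks inside genes. Most of these peaks are repeats of a few places, so the share is a description only. Places seen in 2 or more lists lay 36.9 to 95.2 kb from the start, apart from the Lrp1 peak in intron 1. The name that the deposited lists give a peak is the gene with the nearest start, and for 17 of the 31 peaks (54.8%) that was not the Lrp gene; over all genes it was 38.4%. All peaks of Lrp6 in introns 8 and 11 bear the name Bcl2l14, and those of Lrp5 in introns 18 and 20 bear the name Ppp6r3. By those names Lrp6 would keep 2 peaks, both in Pi replicate 2, Lrp5 would keep 1, and no Lrp gene would be in all 8 lists.

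No Lrp gene had a peak in every list of one side and no list of the other in any of the 5 comparisons made. Among all genes with a peak in the lists compared, such a pattern was shown by 6.89% for Pi against Ctrl, 10.1% for GFP OE against Pi and 7.53% for THOC5 OE against GFP OE. It was shown by 1.78% for the 4 vector lists against the other 4, and by 1.68% for the 6 osteogenic lists against the 2 Ctrl lists. Of the 27 exact permutation tests on numbers of peaks and best percentiles, none had an adjusted p (Benjamini-Hochberg) under 1, and 0 had a raw p under 0.05; the smallest was the 0.0714 of Lrp6. With 2 lists a side no p under 0.333 can be reached, so these tests do not show that the conditions are alike.

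Among genes fixed as the surroundings of the family, 8 of 15 other receptors, chaperones and adaptors of the LDL receptor family had a peak, but none in 4 or more lists. Vldlr, the very low density lipoprotein receptor, came closest with 3 lists (Ctrl replicate 2 and both THOC5 OE lists; percentiles 48.8, 12.2 and 52.6). Among all 21900 protein-coding genes, 18.0% had a peak. Of 27 ligands, chaperones, adaptors and partners of the receptors, 4 had one. The strongest was Agrn, which encodes agrin, the ligand of Lrp4. A 3' UTR peak of Agrn, at chr4:156165598-156166389, was present in all 8 lists. Its percentile was 94.5 and 95.2 with Ctrl, 97.0 and 96.8 with Pi, 99.3 and 99.4 with GFP OE, and 99.5 and 99.6 with THOC5 OE. The vector lists all stood above the other 4, as they did in 25.2% of the 400 genes with a peak in all 8 lists. Transcripts of the ligand thus had a strong peak throughout while the receptor gene Lrp4 had 1 weak peak.

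Of 65 other Wnt pathway genes, 21 had a peak (32.3%, against 18.0% of all protein-coding genes; not tested). They included 5 of 14 receptors, 1 of 17 extracellular regulators, 1 of 5 genes of receptor turnover, 11 of 20 cytoplasmic genes and 3 of 9 nuclear genes. A peak in 4 or more lists was seen in 4 of the 65 (6.15%), against 6.47% of all protein-coding genes. These 4, Btrc, Tnks, Axin1 and Csnk1a1, are on the cytoplasmic list, and the difference between the lists was not tested. Btrc, which encodes the ubiquitin ligase subunit that recognises phosphorylated beta-catenin, had a peak in all 8 lists. Its best percentiles were 12.4 and 36.4 for Ctrl, 45.5 and 45.9 for Pi, 67.4 and 54.5 for GFP OE, and 65.8 and 63.5 for THOC5 OE. Its 4 vector lists were above the other 4, a pattern with the same background of 25.2%. No single place of Btrc was in all 8 lists: the peak in intron 8 was in 1 Ctrl, 1 Pi and all 4 vector lists, and that in intron 7 in the other Ctrl and Pi lists, so these percentiles compare different places. Tnks, the tankyrase that marks axin for degradation, had a peak in 6 lists, all but Pi replicate 1 and GFP OE replicate 2. Its peaks also lay at different places: that in intron 18 was in 4 of these lists.

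Axin1 and Csnk1a1 had a peak in both Ctrl and both Pi lists and in no vector list. Axin1 encodes the scaffold of the beta-catenin destruction complex and Csnk1a1 the casein kinase that primes beta-catenin and belongs to the same complex. The Axin1 percentiles were 35.7 and 18.7 (Ctrl) and 44.1 and 60.5 (Pi), with its peaks in introns 2 and 6 of 9. Those of Csnk1a1 were 73.6 and 82.5 (Ctrl) and 96.0 and 85.6 (Pi), in introns 1 and 7 of 10. No single place of either gene was in all 4 Ctrl and Pi lists. The intron 2 peak of Axin1 was only in Ctrl replicate 2 (18.7), and the intron 1 peak of Csnk1a1 only in Pi replicate 1 (96.0). These percentiles thus compare different places. As given above, 1.78% of genes separated these 4 lists from the vector lists in either direction. With lists cut to 2572 peaks Csnk1a1 kept 4 of 4 lists and Axin1 3, and at the median score Csnk1a1 kept 4 and Axin1 1. Under the authors' names for peaks Axin1 had 0. The Lrp5 and Lrp6 coreceptors, in contrast, had peaks in vector lists as well.

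**Figure D4:**
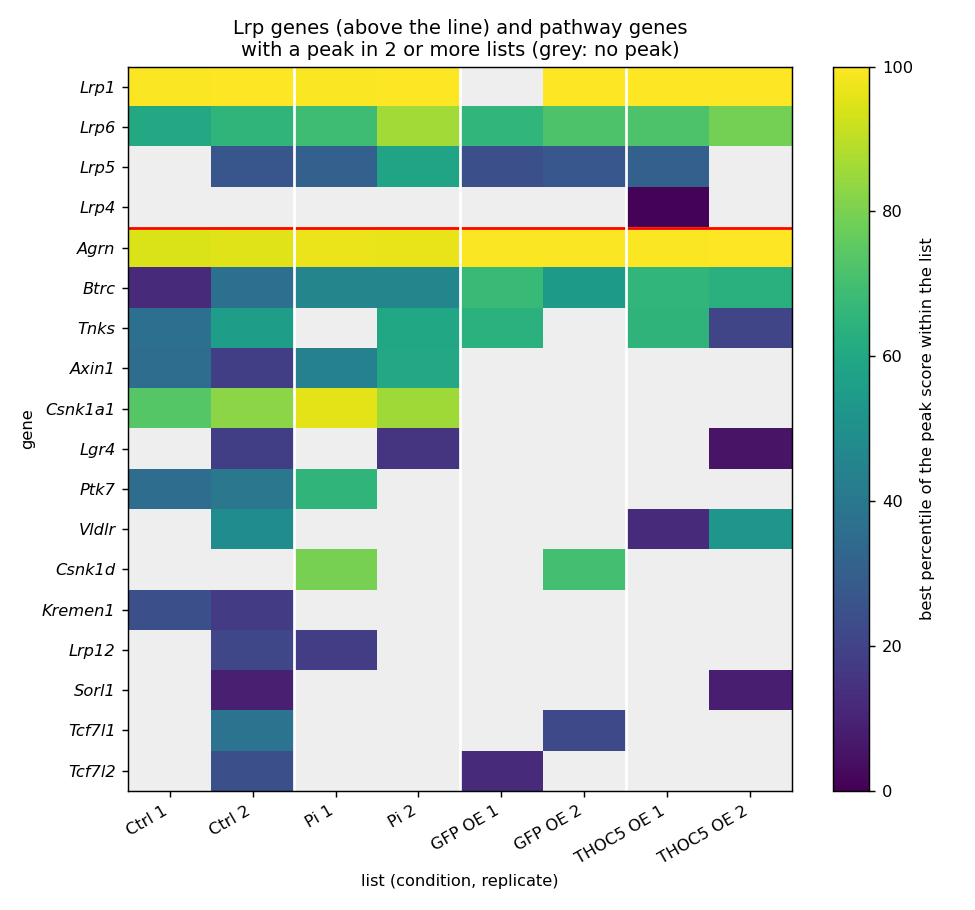
The colour gives the best percentile within each list (columns) of the 4 Lrp genes, above the line, and of the pathway and partner genes with a peak in 2 or more lists, below it; grey is no peak. Agrn and Btrc are filled in all 8 columns, and Axin1 and Csnk1a1 only in the 4 columns of Ctrl and Pi.

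The genes whose pattern was most like that of a Lrp gene were found from the mean absolute difference of best percentile over the 8 lists, with 0 where a list had no peak. For Lrp1 they were Cux1 (4.05), Cic (4.31) and Phldb1 (5.51), each with a peak in 7 lists. For Lrp6 they were Sipa1l3 (4.25), Nav3 (4.51) and Diaph2 (5.28), each in all 8. Lrp5 had no close match: Mier1 differed by 6.97, Dnajc10 by 8.59 and Epb41l3 by 8.77 percentile points, and they had peaks in 5, 4 and 6 lists.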

How the data were processed

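RNA immunoprecipitated with THOC5 was represented by 8 peak lists, 1 per sample. FastQC, Bowtie2, MACS2, SAMtools and mm10 are named, without roles, per the submitters' processing notes. The annotation was made by annotatePeaks.pl on mm10, per the file headers. The peak score is the authors' deposited value; the sources used here do not give which program called the peaks, how, or with which inputs. Distance to the nearest start, in bases, is another value of the deposited files. Depth is unknown, so no counting error was computed. Lists were joined to samples by the condition's abbreviation and number in the file headers (C, P, GP and 50P).

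Transcripts were named through RefSeq genes of GRCm38.p6 (5224 of 5234 matched, 99.8%). Peaks overlapping by at least 1 base formed 1 place. Differences in means were tested by two-sided exact permutation of lists, with Benjamini-Hochberg adjustment over 27 tests at 0.05 (Python 3.11.15, pandas 2.3.3, numpy 2.4.6). The functions were tested on simulated data. Members and lists were chosen with earlier results of these data known. Named genes were the 6 members and listed pathway genes with a peak in at least 4 lists. The 3 closest genes for each member in at least 3 lists were also named. Vldlr, Kif5a, Phldb2, Arhgef17 and Zfp532, and Mylk, Myh11 and Cnn1 among markers, were named after their values were seen. Alternatives were shorter or stricter lists, the authors' gene names, exons only, peaks per 1000 peaks, leaving out each list and a replicate block.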

Additional observations from a re-analysis of the deposited data

Results flagged for a closer look

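In 4 lists with or without a vector, or in the 6 osteogenic lists, single lists stood apart from the others in numbers of peaks, which are small whole numbers with many ties. Lrp1 had 3 peaks in Ctrl replicate 2 and Lrp6 had 3 in Pi replicate 2, where the other Ctrl and Pi lists had 1. Among the vector lists, Lrp6 had 1 in GFP OE replicate 1, Lrp4 had 1 in THOC5 OE replicate 1 (also among the 6 osteogenic lists) and Lrp5 had 0 in THOC5 OE replicate 2. About 1 in 20 groups of continuous values would show such a gap by chance. That rate does not carry over to these counts, where 1 list that differs from equal others always gives such a gap.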

How the results depend on the processing

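No test on the 4 genes with a peak passed the adjusted threshold under any setting run. Of the alternative values, 283 kept their direction or, for counts, stayed within 1.5 times. Another 53 moved, many to 0, and 12 reversed. Lists cut to 2572 peaks or held to their median score gave 0 in place of each Lrp4 difference other than 0, and 0 for Lrp6 peaks in GFP OE minus Pi; the median score also gave 0 for Lrp5 in THOC5 OE minus GFP OE. Cut lists turned the best percentile of Lrp6 to -3.61 (THOC5 OE minus GFP OE) and -0.990 (vector minus no vector). The authors' gene names and exons only both gave 0 for Lrp5 and Lrp6 in THOC5 OE minus GFP OE, and turned Lrp6 in vector minus no vector to -0.5 and -0.25; exons only gave 0 for Lrp1 in GFP OE minus Pi and in vector minus no vector. Per 1000 peaks, Lrp6 in THOC5 OE minus GFP OE turned to -0.0711. Stricter settings leave out peaks by construction; beyond that the cause was not tested.

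Leaving out 1 list at a time moved the difference in peaks of Lrp1 between -2 and 0 (Pi minus Ctrl, and osteogenic minus growth medium), -0.833 and 0 (vector minus no vector) and -1 and 0 (GFP OE minus Pi). For Lrp4 it ran from 0 to 1 (THOC5 OE minus GFP OE), 0.333 (vector) and 0.2 (osteogenic). For Lrp5 it ran from -1 to 0 (GFP OE minus Pi, and THOC5 OE minus GFP OE), -0.583 to 0.0833 (vector) and 0 to 1 (osteogenic). For Lrp6 it ran from 0 to 2 (Pi minus Ctrl), -1.5 to 0.5 (GFP OE minus Pi) and 0 to 1 (THOC5 OE minus GFP OE). The best percentile ran from -0.0502 to 0.121 for Lrp1 in Pi minus Ctrl, and for Lrp6 from 5.96 to 23.2 in Pi minus Ctrl, -17.1 to 0.177 in GFP OE minus Pi and -1.15 to 7.45 for vector. A lone list was taken to vary like the others.

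Counts of all genes on one side only fell at the median score to 50 (Pi) and 64 (Ctrl), 57 (GFP OE) and 103 (Pi), 79 (THOC5 OE) and 15 (GFP OE), 20 (vector) and 16 (no vector), and 5 (osteogenic) and 24 (Ctrl). In cut lists they were 79 for Ctrl against Pi, 74 for GFP OE against Pi, 56 and 50 for THOC5 OE and GFP OE, 14 for vector, and 16 and 38 for osteogenic and Ctrl; by the authors' names 14 for osteogenic. The full lists gave 110 and 123, 112 and 199, 159 and 30, 44 and 28, and 8 and 60. Lrp places numbered 7 at the median score, not 11, and the exon share was 35.7% by the authors' names, under which 0 Lrp genes were in all 8 lists.

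Deviations of same-numbered lists correlated at -0.118 to 0.0809 over genes. With 2 lists per condition, these values do not show whether same-numbered samples shared a culture or batch. A replicate block changed no call, and the p of Lrp6 for osteogenic medium became 0.0625 (exact permutation within numbers). Crossed numbers for Pi and GFP OE, added later, gave 0 calls. At the intron 11 place alone, Lrp6 was 7.42 higher in osteogenic lists. This alternative was added after its values were seen and is so given with no p. That place alone was not examined in cut lists. For the best Lrp6 peak of each cut list, Ctrl reached 59.9 and the lowest osteogenic list stood at 50.1.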
